A study of Mus musculus with 3 samples.

Results

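The clustered protocadherins are cell-surface adhesion proteins encoded by the neighbouring alpha, beta and gamma gene clusters on mouse chromosome 18. Members were taken by gene symbol (Pcdha followed by a digit or c, Pcdhb followed by a digit, and Pcdhga, Pcdhgb or Pcdhgc) among protein-coding genes, which gave 57 of the 54532 genes measured, 22046 of them protein-coding. In the table's coordinates, which are those of GRCm38, the alpha members span positions 36930184 to 37187661 of chromosome 18, the beta members 37264938 to 37524479 and the gamma members 37661793 to 37841873, all on the plus strand. There were 14 alpha, 22 beta and 21 gamma members. The gamma members comprised 12 of the A type, 6 of the B type and 3 of the C type, and with Pcdhac1 and Pcdhac2 the C-type members numbered 5. The symbol Pcdha11 was carried by 2 genes, ENSMUSG00000007440 and ENSMUSG00000102206, which are kept apart here. Pcdhgb8 matched the symbols but is annotated as a polymorphic pseudogene and was not a member (17, 29 and 29 reads).

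RNA-seq was done on the hippocampus of 10-month-old C57BL/6 mice, with 1 library for each of 3 genotypes. The WT library came from wild-type mice, and the PS19 library from mice of the PS19 line, which carries a mutant human tau transgene driven by the mouse prion protein promoter. The third library came from mice labelled PS19, Zbp1+-, written here as PS19 Zbp1+/-. By that label they carry the PS19 transgene and 1 disrupted allele of Zbp1, which encodes a sensor of Z-form nucleic acids, and the PS19 library is the comparison that shares the transgene. The labels name no treatment, no sex, no number of animals and no pooling, and values for libraries are given below in the order WT, PS19, PS19 Zbp1+/-.

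Each alpha and gamma gene has a large variable exon of its own, which encodes the extracellular cadherin repeats, the membrane span and the start of the cytoplasmic tail. This exon is spliced to a few constant exons at the end of the cluster that all genes of that cluster share. Beta genes have a variable exon and no constant exons. In a single neuron a few variable promoters are chosen, largely at random, with the help of CTCF and cohesin, whereas C-type genes are used more regularly across cells. The proteins bind like with like across membranes, which lets a neuron tell its own branches from those of others.

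The recovered read totals were 16746085, 16400328 and 17109734, of which members took 7452, 9119 and 10120. With 1 library per genotype there is no replicate check and no test of a genotype, so the 95% intervals below are exact (Clopper-Pearson), cover counting error only, and compare libraries. The reads carry no molecular identifiers, so copies of 1 molecule are counted separately. Zbp1 itself had 5, 91 and 0 reads, so no reads from a remaining Zbp1 allele were seen in the library labelled PS19 Zbp1+/-, and that name stands below for the label only. Xist had 11062, 13350 and 0 reads, and the Y-linked gene Ddx3y had 0, 0 and 711, so the library labelled PS19 Zbp1+/- differed from the other 2 in sex-linked transcripts, and sex and genotype cannot be told apart in its comparisons. Of 357 genes with 8 to 12 reads in each of the other libraries, 57 (16.0%, interval 12.3% to 20.2%) were at 0 in PS19 Zbp1+/-, against 2.14% and 0.410% for the same count in WT and PS19.

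The shared exons decided how many reads a member could receive. All 14 alpha members share 2860 exon bases in 3 blocks between positions 37156155 and 37187657, and all 21 gamma members share 2116 in 3 blocks between 37825021 and 37841870, whereas no exon base is common to all beta members. These constant exons are part of each gene's length in the table. However, across the genome 1205 of 1223 genes (98.5%) whose every exon base also lies in another gene had 0 reads in all 3 libraries, against 36.4% of 37629 genes with at least 500 bases of their own. The share was 98.6% among the 148 of those genes that would have at least 500 bases of their own if strand were used. Reads in bases that genes share were therefore left out of these values almost everywhere, whichever strand the other gene lies on. The bases of a member that belong to no other gene are called countable below.

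Countable bases made up a median of 46.4% of the length in the alpha cluster, 100% in the beta cluster and 54.8% in the gamma cluster. Pcdhga10, an A-type gamma member, had none, because the antisense transcript Gm26672 covers all 2613 bases that it does not share with its own cluster, and it had 0, 1 and 0 reads. Pcdha4 had 404 countable bases, since the gene Gm42416 on the same strand covers 2410 of its bases, and it had 1, 3 and 0 reads. The Pcdha11 gene ENSMUSG00000102206 had 1268 countable bases against 4606 if strand were used, because Gm10545 and Gm10544 lie opposite, and it had 1, 0 and 0 reads. The near-absence of reads from these 3 genes says nothing about their transcription in the overlapped bases. That Pcdha11 gene was, however, also nearly unread over its 1268 countable bases, whereas Pcdhga11 had 595 reads over 1256. Among members with more reads, Pcdhgb1 and Pcdhga4 share 1038 bases with each other, Pcdhb21 and Pcdhb22 share 455, and the antisense gene BC037039 covers 1559 bases of Pcdhgc3. Low counts in Pcdha8 (3, 9 and 0 reads over 2478 countable bases) and Pcdhb1 (10, 0 and 5 reads over 2588) were not of that kind. For both genes a library at 0 allows up to 3 reads. Pcdha8 was at 0 in PS19 Zbp1+/-, and Pcdhb1 was at 0 in PS19. The rates of genes at 0 given above cover genes with 8 to 12 reads in each of the other libraries. Neither gene is in that class, so those rates do not apply to them.

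**Figure D1:**
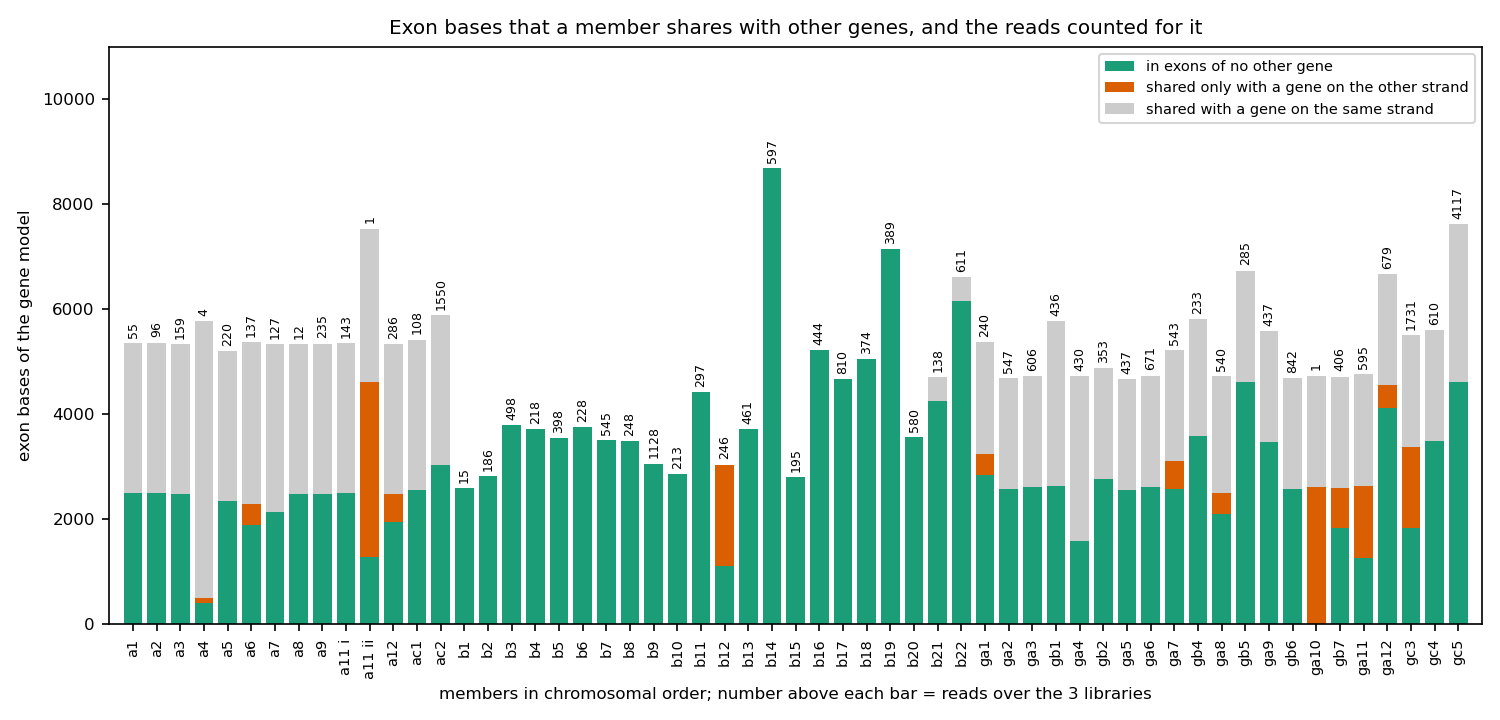
Exon bases of each of the 57 gene models in chromosomal order, split into bases in exons of no other gene, bases shared only with a gene on the opposite strand and bases shared with a gene on the same strand. The number above each bar is the reads over the 3 libraries. The grey part of the alpha and gamma bars is mostly the constant exons, and nearly all beta bars are green to the top. Pcdha4, the second Pcdha11 gene (a11 ii, ENSMUSG00000102206) and Pcdhga10 have 404, 1268 and 0 green bases and 4, 1 and 1 reads.

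Countable stretches of related members also resemble each other. The nearest other member was 77.6% to 86.8% identical among the 10 alpha members with an alignment of at least 300 bases, 70.1% to 88.7% among 22 beta members and 77.2% to 93.0% among 17 gamma members. The highest identity was that of Pcdhgb6 and Pcdhgb7, 93.0% over 514 bases. None of the 5 C-type members had such an alignment. How reads with several matches were treated is not given in the sources used here, so the split between close relatives is uncertain.

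Per countable length, the median gamma gene was read most and the median alpha gene least in each library. Levels between genes are given here as FPKM (fragments per kilobase of length, scaled to library size) recomputed on countable bases, which still counts too few reads at junctions with shared exons. The median countable FPKM, over members with at least 500 countable bases, was 0.928, 1.01 and 1.46 in the alpha cluster, 1.56, 1.65 and 1.68 in the beta cluster, and 3.13, 3.95 and 5.20 in the gamma cluster. By the sum over each cluster, reads per countable kilobase, scaled to library size, were 1.51, 1.80 and 2.87 for alpha, 1.83, 2.04 and 1.99 for beta and 3.95, 5.16 and 6.65 for gamma, so that in PS19 Zbp1+/- the alpha sum lay above the beta sum. On the deposited scale, which divides by the full gene length, the beta and gamma medians lay closer in WT and PS19 (1.51 against 1.40 FPKM, and 1.57 against 1.85 FPKM). On that scale 1 alpha, 16 beta and 17 gamma members reached 1 FPKM in every library. Over the 55 members with at least 500 countable bases, which leaves out Pcdha4 and Pcdhga10, the order of levels was similar between libraries (Spearman rho 0.94 for WT and PS19, 0.90 for PS19 and PS19 Zbp1+/-, 0.91 for WT and PS19 Zbp1+/-). These points share the same gene lengths, and the values describe the set without a test.

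Of the 5 C-type genes, 3 stood at the top of their clusters. Pcdhgc5 had countable FPKM values of 12.2, 16.0 and 25.7, Pcdhgc3 of 13.2, 24.8 and 18.5, and Pcdhac2 of 6.32, 9.19 and 15.4. Pcdhgc4, whose protein is known for its role in the survival of cortical interneurons, was lower at 2.17, 4.21 and 4.12. Pcdhac1 was the lowest of the C-type members at 0.498, 0.995 and 1.04. Pcdhac2, known for its part in the tiling of serotonergic axons, took 41.5%, 50.6% and 53.3% of alpha reads. Pcdhgc5 took 25.4%, 25.4% and 31.7% of gamma reads.

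Among the other members, Pcdha12 had the highest countable level of the alpha cluster (2.41, 2.35 and 4.10), followed in WT by Pcdha5 (1.83, 1.58 and 2.21) and Pcdha9 (1.68, 1.24 and 2.80). These alternate alpha isoforms carry the same cytoplasmic end as Pcdhac2. In the beta cluster Pcdhb9 was highest in each library (6.45, 8.14 and 7.40), and Pcdhb1, at the cluster's alpha-facing end, was lowest (0.224, 0 and 0.122). Pcdhb12 came next to Pcdhb9 at 5.29, 4.13 and 3.77, a level that rests on the 36.5% of its length not covered by the antisense gene Gm37446. The beta genes Pcdhb17 (307, 273 and 230 reads), Pcdhb7 (200, 178 and 167) and Pcdhb20 (184, 204 and 192) also ranked high, and the first of these had a PS19 Zbp1+/- over WT ratio of 0.817 (0.685 to 0.972). In the gamma cluster Pcdhga11 (8.31, 8.84 and 11.2) and Pcdhgb6 (5.60, 7.42 and 6.53) led the A and B types in each library by countable level. The Pcdhga11 level rests on the 26.4% of its length that is countable. By deposited FPKM Pcdhga11 (2.19, 2.34 and 2.96) led the A type in no library. Pcdhga6 was above it in WT and PS19 (2.72 and 2.95 FPKM), and Pcdhga2 in PS19 Zbp1+/- (3.07 FPKM).

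**Figure D2:**
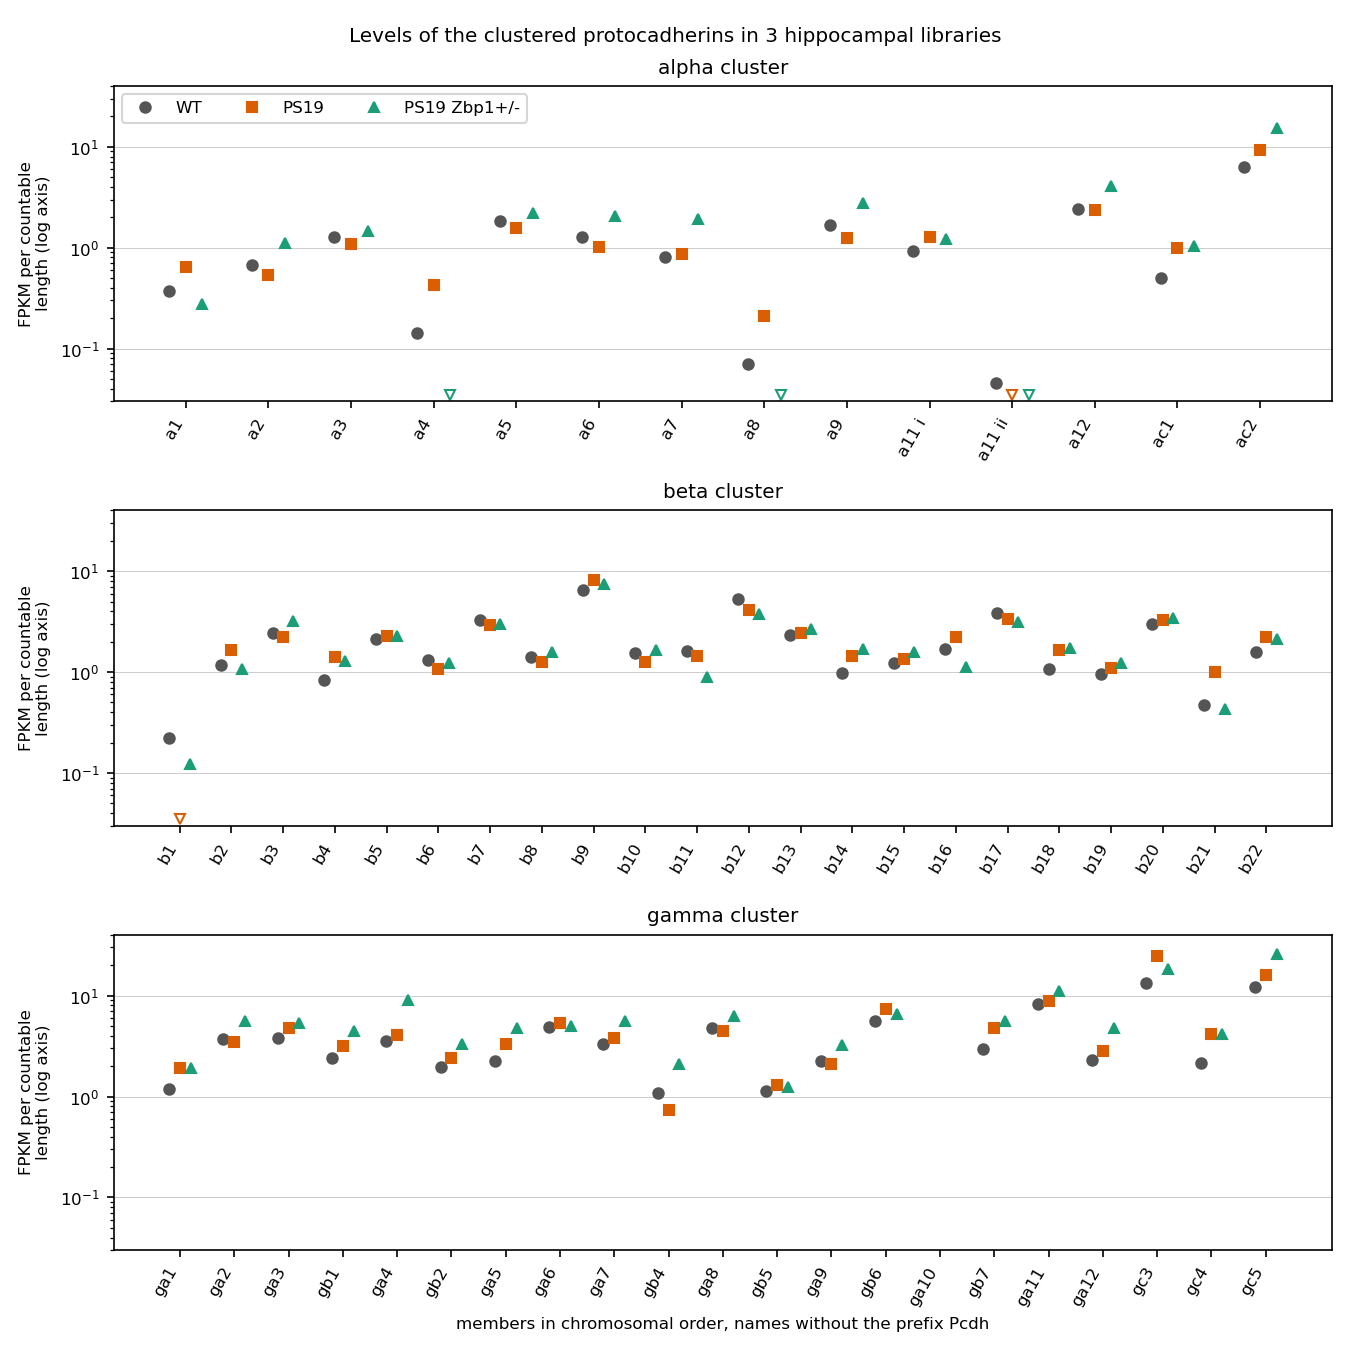
Level of each member as FPKM on its countable length (log axis) in the WT, PS19 and PS19 Zbp1+/- libraries, with members in chromosomal order. Open triangles at the lower edge mark 0 reads, and Pcdhga10 has no countable length and no point. C-type members at the right end of the alpha and gamma panels reach the highest values (25.7 for Pcdhgc5), and PS19 Zbp1+/- is the highest of the 3 libraries for most gamma members but not for most beta members.

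The 3 clusters did not move in proportion. The beta share of all member reads was 38.0% in WT (interval 36.9% to 39.1%), 34.7% in PS19 (33.7% to 35.7%) and 27.9% in PS19 Zbp1+/- (27.0% to 28.8%). The gamma share was 51.3% (50.1% to 52.4%), 54.9% (53.9% to 55.9%) and 58.4% (57.4% to 59.4%). Thus the beta share was lower and the gamma share higher from WT to PS19 to PS19 Zbp1+/-, with intervals that did not overlap. The higher gamma share in PS19 than in WT lay in the 3 C-type gamma members, at 20.4%, 25.3% and 26.0%. The other 18 gamma members took 30.9% in WT (29.9% to 32.0%), 29.6% in PS19 (28.7% to 30.5%) and 32.4% in PS19 Zbp1+/-. The alpha share was 10.7% and 10.4% in WT and PS19, with overlapping intervals, and 13.7% (13.0% to 14.4%) in PS19 Zbp1+/-. The C-type members together took 25.1%, 31.1% and 33.7% of member reads. Shares within a library do not depend on how libraries are scaled.

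**Figure D3:**
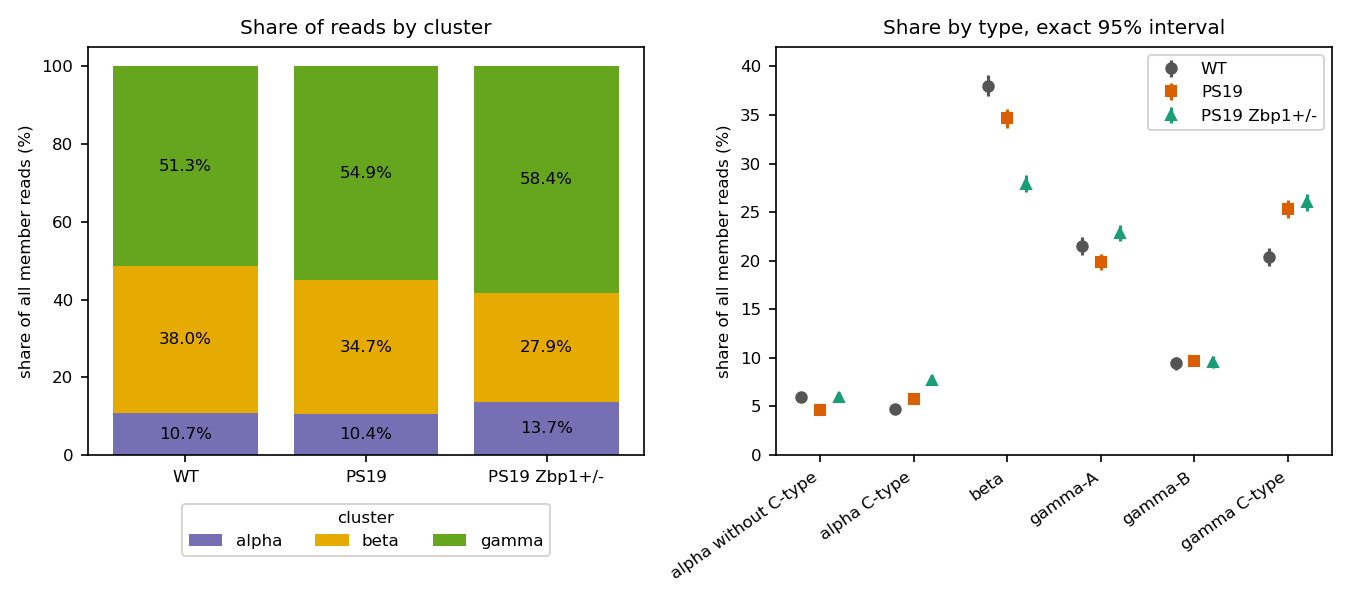
Left, share of all member reads in each library that fell to the alpha, beta and gamma clusters (bars stacked to 100%). Right, the same shares by type with exact 95% intervals of counting error, where the beta share is 38.0%, 34.7% and 27.9% and the C-type gamma share is 20.4%, 25.3% and 26.0%.

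In reads per library, the alpha cluster summed to 796, 951 and 1386 and the gamma cluster to 3822, 5007 and 5910. Both sums were lowest in WT and highest in PS19 Zbp1+/-. The beta cluster summed to 2834, 3161 and 2824. Ratios per library size, on the deposited scaling, were as follows for PS19 over WT: 1.19 (1.08 to 1.31) for alpha, 1.11 (1.06 to 1.17) for beta and 1.31 (1.25 to 1.36) for gamma. The alpha ratio rested on the C-type members, since the other 12 alpha genes gave 0.958 (0.836 to 1.10). For PS19 Zbp1+/- over PS19 the ratios were 1.59 (1.46 to 1.73) for alpha and 1.29 (1.24 to 1.34) for gamma. The beta ratio there was 0.976 (0.927 to 1.03), with 0.800 and 0.856 when libraries were scaled to equal summed FPKM (TPM) or equal total reads and 1.02 when the median of genes of like GC content and length was subtracted. Over WT, the PS19 Zbp1+/- ratios were 1.90 (1.74 to 2.07) for alpha and 1.69 (1.62 to 1.76) for gamma. The beta value of 1.09 (1.03 to 1.14) became 0.974 under TPM and 0.975 under equal total reads. Those scalings move the median difference of all genes, on log2(FPKM + 1), from 0.04 to -0.23 and -0.12 for PS19 Zbp1+/- over PS19, and from 0.01 to -0.14 and -0.12 over WT. The 3 comparisons share libraries, so a high or low count in PS19 enters the first and the second with opposite sign. In whole tissue, fewer cells of a type and less RNA per cell cannot be told apart.

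Between PS19 and WT no member differed by 1 log2 unit on the scale of log2(FPKM + 1), among the 39 members with at least 1 FPKM in either library, against 2.5% of 12703 protein-coding genes in either direction. Members that passed this minimum include those that passed only through the library in which they are high. The added 1 shrinks differences at low FPKM, here and in the comparisons below. Pcdhgc4, at 1.35 FPKM in WT and 2.62 in PS19, had a read ratio of 1.94 but a difference of 0.624 on this scale. Counts on this scale therefore do not show that members were more stable than other genes. A read ratio of at least 1.5-fold, a measure added after the values were seen, was reached by 9 of the 52 members with 20 or more reads in the higher direction, against 12.5% of 14646 genes, and by 0 in the lower direction, against 5.89%. The share of 17.3% higher is near the background. Here and below, the genes of the background are not matched to the members in read depth or GC content. By cluster these were 2 of 11 alpha, 3 of 21 beta and 4 of 20 gamma members, and 3 of the 9 were C-type.

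Pcdhgc3 had 415, 782 and 534 reads, so that PS19 was the highest library and its ratio to WT was 1.88 (1.67 to 2.12). Pcdhgc4 had 130, 253 and 227 reads, a ratio of 1.94 (1.57 to 2.42), and Pcdhac1 had 22, 44 and 42, a ratio of 2.0 (1.17 to 3.50). For these genes WT was the low library and the PS19 libraries were close to each other or, for Pcdhgc3, apart in the other direction. Among beta genes Pcdhb21 had 35, 74 and 29 reads and a PS19 over WT ratio of 2.11 (1.39 to 3.25), and Pcdhb4 had 53, 90 and 75 and a ratio of 1.69 (1.19 to 2.43). The lowest beta ratios were 0.781 (0.574 to 1.06) for Pcdhb12 and 0.801 (0.575 to 1.11) for Pcdhb6. Their intervals included 1, as did those of the lowest alpha and gamma members, Pcdha9 at 0.735 (0.505 to 1.06) and Pcdhgb4 at 0.685 (0.460 to 1.01). Pcdha6 had 42, 33 and 62 reads and a PS19 over WT ratio of 0.784 (0.482 to 1.27), and Pcdhga2 had 165, 154 and 228 and a ratio of 0.931 (0.743 to 1.17), so both were lowest in PS19 within counting error of WT. The ratio was above 1 in 16 of 20 gamma, 13 of 21 beta and 5 of 11 alpha members, against 48.3% of genes.

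Between PS19 Zbp1+/- and PS19 no member differed by 1 log2 unit (0 of 42, against 7.16% of 12772 genes in either direction). The low levels of members limit this count too, as Pcdhgb4 had a read ratio of 2.85 but a difference of 0.661 on that scale. By read ratio, 12 of 52 members were at least 1.5-fold higher, against 12.9% of 14525 genes, and 5 were at least 1.5-fold lower, against 20.3%. The higher members were 6 of 11 alpha and 6 of 20 gamma genes, and no beta gene. The lower members were 4 of 21 beta genes and 1 alpha gene, and no gamma gene. The ratio was above 1 in 15 of 20 gamma, 11 of 21 beta and 9 of 11 alpha members, against 51.2% of genes.

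The highest ratio was that of Pcdhgb4, a B-type gamma gene with 67, 46 and 120 reads, at 2.85 (2.01 to 4.10). Pcdhga4 had 96, 111 and 223 reads, a ratio of 2.19 (1.74 to 2.78). Among alpha genes Pcdha9 had 72, 53 and 110 reads, a ratio of 2.27 (1.62 to 3.21), and Pcdha7 had 30, 32 and 65, a ratio of 2.22 (1.43 to 3.50). In all 4 genes PS19 Zbp1+/- was the high library, and for Pcdhgb4 and Pcdha9 PS19 was also below WT. Pcdhgc5 had 972, 1274 and 1871 reads, with a ratio of 1.60 (1.49 to 1.72), and Pcdhac2 had 330, 481 and 739, with 1.68 (1.49 to 1.89). Pcdhgc3 went the other way at 0.746 (0.667 to 0.834), so the C-type members did not move together here. Pcdhgc4 and Pcdhac1 stood at 0.980 (0.816 to 1.18) and 1.04 (0.667 to 1.63).

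On the low side Pcdhb16 had 153, 199 and 92 reads, a ratio of 0.505 (0.390 to 0.650), and Pcdhb21 had a ratio of 0.428 (0.269 to 0.666). Pcdha1, at the upstream end of the alpha cluster, had 16, 28 and 11 reads and a ratio of 0.429 (0.193 to 0.889). Pcdhb16 was lowest in PS19 Zbp1+/-, whereas Pcdhb21 was high in PS19 alone. Pcdhb3 had the highest beta ratio, 1.45 (1.16 to 1.81), from 161, 145 and 192 reads, followed by Pcdhb10 at 1.32 (0.931 to 1.88).

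**Figure D4:**
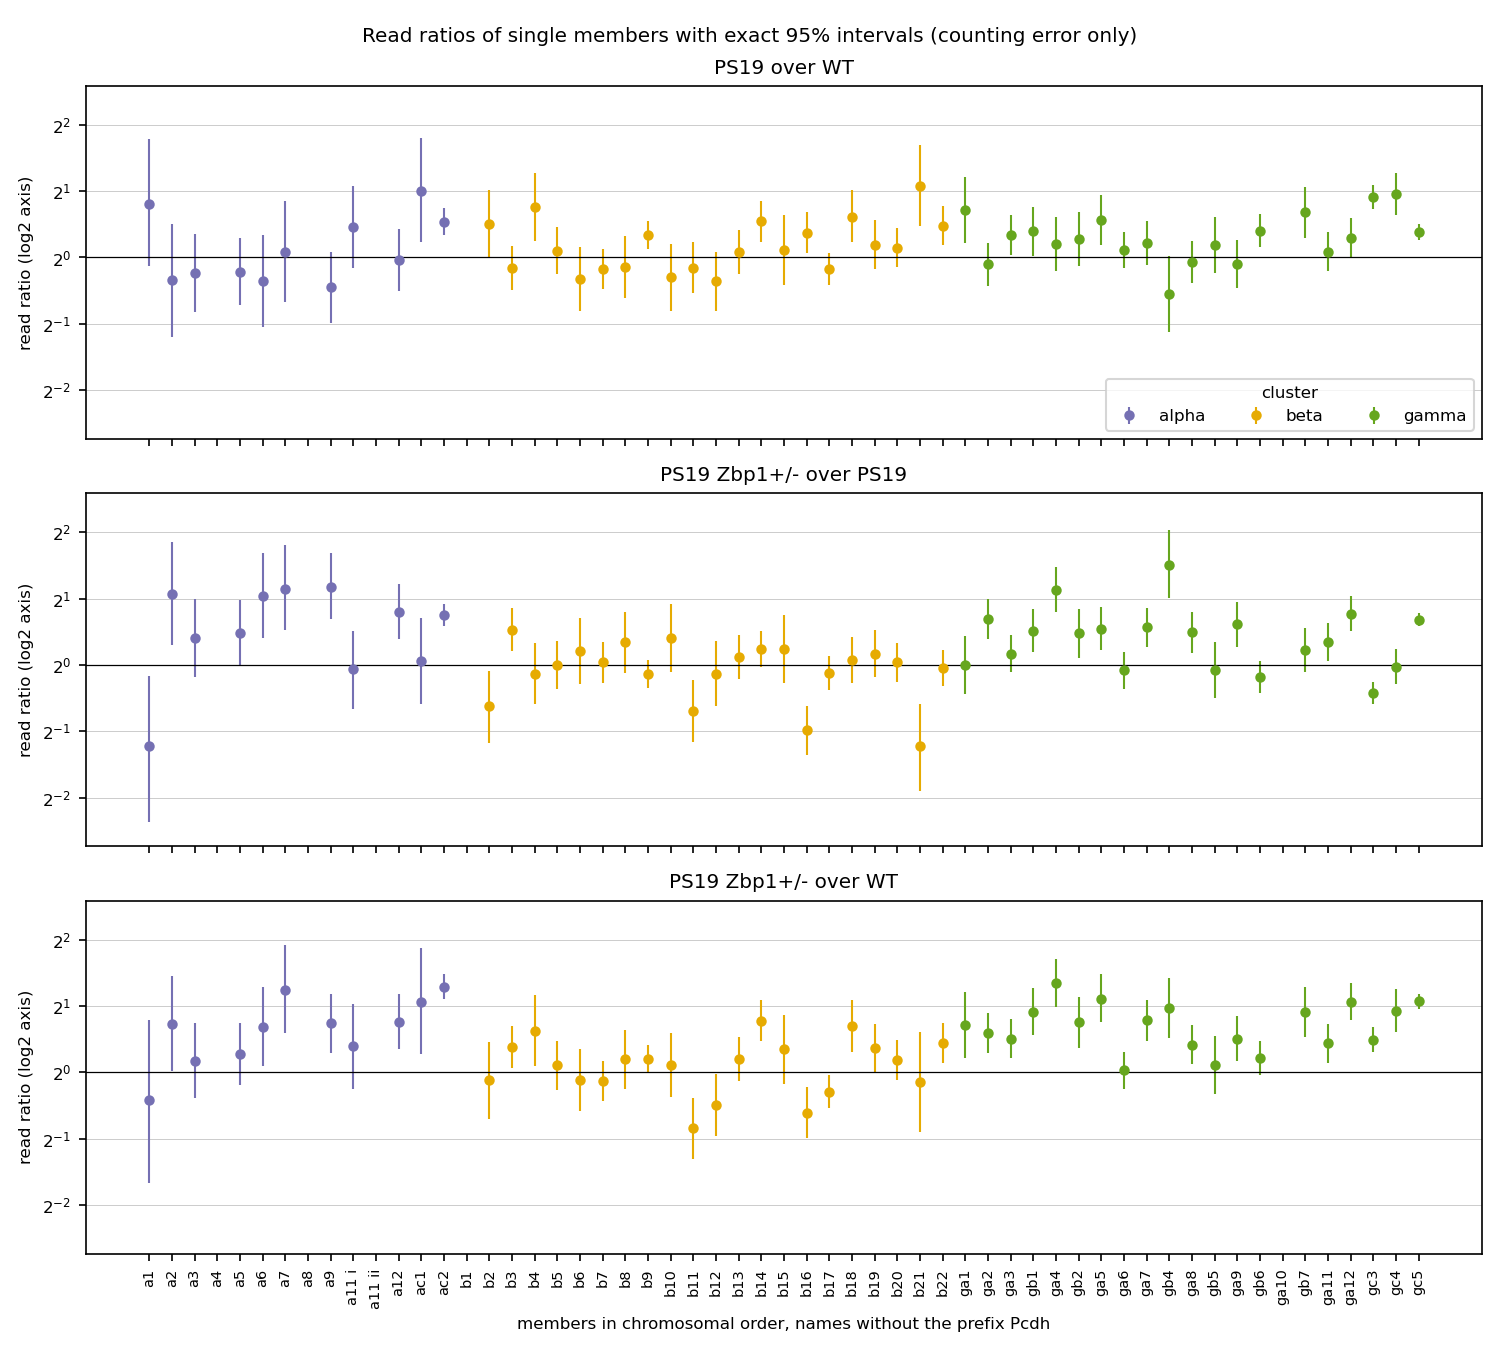
Read ratio per library size (log2 axis) of each member with 20 or more reads over both libraries, in chromosomal order and coloured by cluster, with exact 95% intervals of counting error. In the middle panel the alpha and gamma points lie mostly above 1, up to 2.85 for Pcdhgb4, while the beta points scatter around 1 with Pcdhb16 and Pcdhb21 at 0.505 and 0.428. In the lowest panel all 20 gamma points lie above 1 on the deposited scaling, 17 of them with intervals above 1.

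Between PS19 Zbp1+/- and WT 1 of 42 members differed by 1 log2 unit, against 3.35% of 12436 genes in either direction. It was Pcdhac2, with FPKM values of 3.25, 4.73 and 7.93 and a difference of 1.07 on log2(FPKM + 1), and no member passed under TPM, equal total reads or subtraction by GC content and length. By read ratio 22 of 52 members were at least 1.5-fold higher, against 11.4% of 14352 genes, and 2 were lower, against 14.3%. Those genes are not matched to the members in read depth or GC content. The 22 were 7 of 11 alpha, 3 of 21 beta and 12 of 20 gamma members. On the deposited scaling all 20 gamma members had a ratio above 1, against 49.4% of genes, and 17 had intervals above 1. The ratios ran from 1.02 (0.841 to 1.24) for Pcdhga6 to 2.53 (1.98 to 3.25) for Pcdhga4. Under TPM or equal total reads every such ratio is lower, with the gamma sum at 1.51 instead of 1.69. Pcdhga5, an A-type gene with 98, 145 and 194 reads, stood at 2.16 (1.68 to 2.78) and Pcdhga3, with 170, 215 and 221 reads, at 1.42 (1.16 to 1.74). Both were lowest in WT. The B-type gene Pcdhgb5 had 91, 104 and 90 reads and a ratio of 1.08 (0.797 to 1.46). The beta genes spread on both sides of 1, with 13 of 21 above it. Pcdhb14 was highest at 1.72 (1.39 to 2.12) from 148, 216 and 233 reads, Pcdhb18 followed at 1.62 (1.23 to 2.13) from 93, 143 and 138 reads, and Pcdhb11 was lowest at 0.558 (0.405 to 0.762) from 123, 111 and 63 reads. Among alpha genes Pcdhac2 stood at 2.44 (2.14 to 2.79) and Pcdha7 at 2.36 (1.51 to 3.77), while Pcdha3 had 55, 47 and 57 reads and a ratio of 1.13 (0.766 to 1.67). Pcdha1 was the only alpha member of 11 below 1, at 0.749 (0.314 to 1.72).

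PS19 Zbp1+/- was the highest of the 3 libraries for 9 of 11 alpha members with 20 or more reads, 9 of 21 beta and 15 of 20 gamma members, against 37.9% of 14950 genes. The reads ran WT below PS19 below PS19 Zbp1+/- in 11 of 20 gamma members, 6 of 21 beta and 3 of 11 alpha members, against 15.4% of genes. WT was the highest library for no alpha or gamma member with 20 or more reads and for 5 beta members, against 29.1% of genes. These orders are of scaled FPKM and count the same 3 libraries for every gene.

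The clusters differ in base composition, and so did the libraries. The GC content of countable bases had a median of 52.9% in the alpha, 46.1% in the beta and 51.3% in the gamma cluster. Over all genes, the median ratio of PS19 Zbp1+/- to PS19 was 0.859 in the tenth of genes with the lowest GC content and 1.27 in the tenth with the highest. Against WT these medians were 0.834 and 1.18, and for PS19 over WT 0.959 and 0.919. Across 51 members the GC content of countable bases and the log2 ratio of PS19 Zbp1+/- to PS19 were correlated at 0.49 by Pearson and 0.49 by Spearman, as a description, and within clusters Pearson r was 0.21 in alpha, 0.14 in beta and 0.02 in gamma. After the median of genes of like GC content and length was subtracted, the ratios of PS19 Zbp1+/- to PS19 were 1.56 for alpha, 1.02 for beta and 1.09 for gamma. With GC content taken from the countable bases, an alternative added after the values were seen, they were 1.39, 1.02 and 1.20. The gamma and beta ratios, 1.29 and 0.976 as deposited, were thus closer to each other under both. The part of base composition in these ratios was not tested further.

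**Figure D5:**
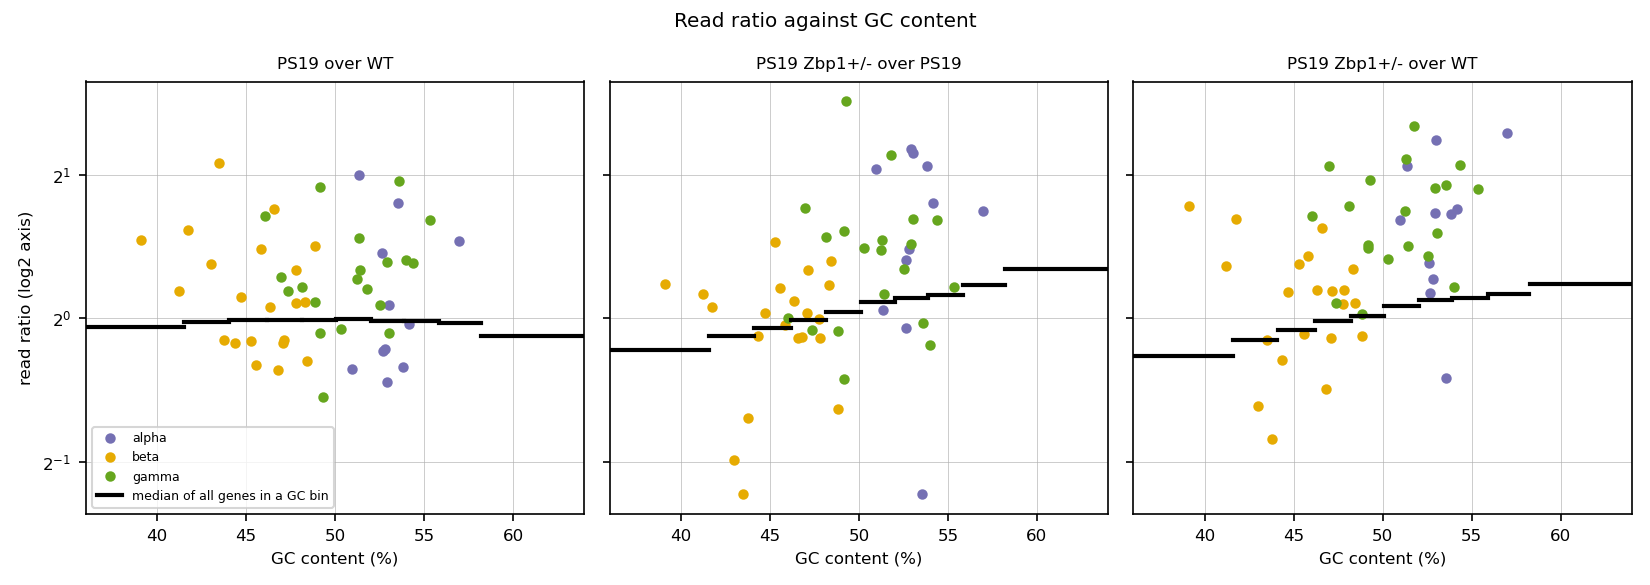
Read ratio (log2 axis) of members against the GC content of their countable bases, coloured by cluster, with black bars for the median ratio of all genes in each of 10 GC bins (GC content of the longest transcript, axis shown from 36% to 64%). The bars climb from 0.859 to 1.27 in the middle panel and from 0.834 to 1.18 in the right panel, and the beta members lie at lower GC content than the alpha and gamma members.

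Levels of cell type markers also differed between the libraries. None of the 40 markers in 9 lists was at 0 reads in any library, and the hippocampal subfield markers Prox1, Wfs1, Ociad2 and Pou3f1 summed to 113, 94.0 and 109 FPKM. Single subfield markers moved apart: Prox1, a dentate granule cell gene, had 8.76, 9.51 and 5.20 FPKM, and Pou3f1, a pyramidal cell gene, had 22.6, 18.8 and 40.4 FPKM. The 5 excitatory neuron markers summed to 1403, 1094 and 1803 FPKM and the 5 interneuron markers to 453, 358 and 400.0 FPKM. The interneuron sum followed Sst (315, 201 and 257 FPKM), whereas 4 of the 5 markers were higher in PS19 than in WT, with a median difference of 0.21 on log2(FPKM + 1). The astrocyte markers summed to 249.9, 396 and 269.6 FPKM, the oligodendrocyte markers to 685, 1210.3 and 434 FPKM, and the microglia markers to 118, 368 and 117 FPKM. The choroid plexus markers summed to 3109, 1899 and 10.4 FPKM, and the endothelial markers to 30.2, 29.0 and 47.7 FPKM. The library with the highest alpha and gamma sums had the highest excitatory marker sum and the lowest oligodendrocyte and choroid plexus sums. From WT to PS19 the alpha and gamma sums were also higher. In that step the excitatory and choroid plexus marker sums were lower and the oligodendrocyte sum was higher. Of the 5 excitatory markers 4 were higher in PS19 Zbp1+/- than in WT. The other, Neurod6, was highest in WT (69.4, 50.8 and 57.9 FPKM). The part of tissue composition in the protocadherin ratios was not tested.

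Other genes of the pathway are given by list, each with its median difference on log2(FPKM + 1) for PS19 Zbp1+/- against PS19, where the median of all genes was 0.04. Of the 62 genes in the 5 lists, none that reached 1 FPKM in either library differed by 1 log2 unit in this comparison or between PS19 and WT. Of 8 non-clustered protocadherins with at least 1 FPKM, which are adhesion proteins of other loci, 6 were higher and the median was 0.44. Pcdh19, which pairs with N-cadherin, had 8.26, 7.0 and 13.8 FPKM, Pcdh1 had 38.3, 39.2 and 68.4 FPKM, and Pcdh17 had 5.92, 6.51 and 10.1 FPKM. PS19 Zbp1+/- was the high library for all 3. Of 11 genes for CTCF, cohesin and its loaders, which build the loops between protocadherin promoters and enhancers, 8 were lower and the median was -0.18. The cohesin subunit gene Stag2 had 8.53, 10.1 and 6.51 FPKM, Stag1 had 3.89, 4.05 and 2.56 FPKM, and the loader gene Nipbl had 6.23, 7.32 and 5.10 FPKM. These 3 were lowest in PS19 Zbp1+/-, and their GC contents were 38.1%, 41.9% and 42.4%, against 47.8%, 60.7% and 45.6% for Pcdh19, Pcdh1 and Pcdh17.

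Of 8 silencing and DNA methylation genes 5 were higher, with a median of 0.12. Dnmt1, the maintenance methyltransferase, had 6.91, 7.14 and 10.8 FPKM, Wiz had 5.0, 5.68 and 7.96 FPKM, and the repressor gene Rest had 1.43, 1.60 and 0.831 FPKM, with GC contents of 54.0%, 56.8% and 47.2%. Of 14 genes for cytoplasmic partners and cleavage 8 were higher, with a median of 0.12. In this list Cyfip2 and Wasf1, which encode parts of the WAVE complex of actin regulation, had 104, 114 and 162 FPKM and 129.9, 94.7 and 133 FPKM, and the kinase gene Ptk2b had 106, 92.7 and 121 FPKM. Of 16 other neuronal adhesion genes 13 were higher, with a median of 0.21. Nlgn2, the neuroligin of inhibitory synapses, had 49.9, 48.5 and 84.3 FPKM, and Cdh13 had 3.81, 3.29 and 6.44 FPKM. Dscaml1, an immunoglobulin family protein of self-avoidance, had 7.94, 9.53 and 17.1 FPKM. The GC contents of Nlgn2, Cdh13 and Dscaml1 were 60.7%, 45.3% and 57.5%. Dscaml1 was the 1 gene of the 5 lists past 1 log2 unit in any comparison, at 1.02 for PS19 Zbp1+/- against WT.

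The single-copy gene Taf7, which lies between the beta and gamma clusters, served as a local comparison. It had 148, 134 and 139 reads, with ratios of 0.904 (0.710 to 1.15), 1.13 (0.887 to 1.45) and 1.02 (0.806 to 1.30) for PS19 over WT, PS19 Zbp1+/- over PS19 and PS19 Zbp1+/- over WT. Diaph1, beyond the gamma cluster, had 1441, 1056 and 1193 reads. Its ratios were 0.731 (0.675 to 0.792), 1.23 (1.13 to 1.34) and 0.903 (0.835 to 0.975). Taf7 thus did not differ beyond counting error. For PS19 Zbp1+/- over PS19 its interval held the gamma ratio of 1.29 but not the alpha ratio of 1.59. Diaph1 was highest in WT, unlike the alpha and gamma sums, but its PS19 Zbp1+/- over PS19 ratio lay above 1, as theirs did.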

How the data were processed

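Total RNA from hippocampus was extracted with TRIzol and made into libraries with an NEB Next Ultra kit, per the labels. The submitters' processing notes name Trim Galore 0.6.5, STAR 2.5.3a, featureCounts 2.0.4 and the build mm39. The gene positions in the deposited table are those of GENCODE M21 on GRCm38 (98.3% of 54409 IDs found there, and all 57 members), so coordinates are given as GRCm38. Strand, multi-mapping and overlap settings are not given in the sources used here. The deposited values are FPKM, and gene lengths include shared exons.

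Every FPKM times gene length was a whole multiple of 1 step (100% within 0.02), which gave reads and implied library sizes of 17253479, 17287957 and 15826984. These match median-of-ratios size factors (1.03, 1.03 and 0.945), so a size-factor scaling is already in the deposited FPKM. Differences used log2(FPKM + 1) for protein-coding genes that reached 1 FPKM in either library, called at 1 log2 unit. Read ratios were taken per implied library size, and a library at or under 3 reads was set to 3. Countable bases, GC content and identity came from GENCODE M21 models, with BLAST 2.17.0 for identity. Scripts ran in Python 3.11.15 with scipy 1.17.1, matplotlib 3.10.9, pandas 2.3.3 and numpy 2.4.6. Read recovery and ratios were tested on simulated data. With 1 library per genotype no test was run.

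Members and lists were chosen with earlier results of these data known. Genes named were the C-type members; in each cluster the 5 with the highest mean FPKM; in each comparison and cluster the 2 highest and the 2 lowest read ratios among members with at least 20 reads; members at 0 reads in a library where another has at least 10; and in each other list the 3 with the largest difference between PS19 Zbp1+/- and PS19. Members with low or overlapped counts (Pcdha4, Pcdha8, the second Pcdha11 and Pcdhga10), Pcdhga11, Pcdhgb1, Pcdhgb7, Pcdhb22, Taf7 and Diaph1 were named after their values were seen.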

Additional observations from a re-analysis of the deposited data

Results flagged for a closer look

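Of 28 other genes in the region of the clusters, gaps between clusters included, 12 had 0 reads in all 3 libraries. Of the 28, 2 that belong to no comparison above had read ratios of PS19 over WT whose intervals lay above 1. Gm8242, a transcribed processed pseudogene, had 31 reads in PS19 against 15 in WT, with 18 in PS19 Zbp1+/-, and its ratio was 2.06 (1.08 to 4.11). The long intergenic RNA 3222401L13Rik had 55 reads in PS19 against 28 in WT, with 28 in PS19 Zbp1+/-, a ratio of 1.96 (1.22 to 3.21).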

How the results depend on the processing

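No paired analysis was possible because each genotype had 1 library, and for the same reason no library could be left out. Of 108 alternative values for 12 results, 45 stayed within the counting interval or the range set for a count, 58 left it without a change of direction and 5 changed direction, and the causes were not tested. A further 5, all among the 45, crossed 1 for the beta ratio of PS19 Zbp1+/- over PS19, whose interval included 1 (0.976 became 1.02 to 1.03). The alternatives with a read ratio of 1.5-fold, with GC content of countable bases and with medians over members with 20 or more reads were chosen after seeing the data.

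Members past the threshold numbered, for PS19 over WT, 1 by log2 read ratio, 2 at 1.5-fold on FPKM and 9 by read ratio of 1.5-fold, against 0. For PS19 Zbp1+/- over PS19 they were 3 with a pseudocount of 0.1, and then 8, 5 and 17 in that order, against 0. For PS19 Zbp1+/- over WT they were 5 and 3 with pseudocounts of 0.1 and 0.5, then 7, 6 and 24, and 0 under TPM, equal total reads and GC and length bins, against 1.

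For PS19 over WT the alpha ratio changed direction without the C-type members (0.958) and as the median of log2 read ratios over members with 20 or more reads (0.973). Over all 14 members that median was 0.998, a value near 1 by construction for Pcdha4 and the second Pcdha11, which had 3 reads or fewer and were both set to 3 reads in both libraries. The alpha ratio was 1.01 without Pcdhac2 and 1.0 as the median of log2(FPKM + 1) differences. The beta ratio was 1.22 under TPM and 1.05 as the median of FPKM differences. The gamma ratio was 1.43 under TPM, 1.22 with GC and length bins, 1.17 without the C-type members, and 1.11 and 1.21 as medians of FPKM differences and read ratios (1.22 over members with 20 or more reads).

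For PS19 Zbp1+/- over PS19 the alpha, beta and gamma ratios were 1.31, 0.800 and 1.06 under TPM and 1.40, 0.856 and 1.13 with equal total reads. As medians of FPKM differences and read ratios alpha was 1.14 and 1.36 and gamma 1.22 and 1.39, where the alpha value of 1.36 again includes those 2 genes, and Pcdha8 with its 0 reads set to 3. Over members with 20 or more reads the medians of read ratios were 1.68 for alpha and 1.40 for gamma. Gamma was 1.18 without Pcdhgc5 and 1.09 with GC and length bins. With the GC content of countable bases alpha was 1.39 and gamma 1.20.

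For PS19 Zbp1+/- over WT the beta ratio changed direction under TPM (0.974) and equal total reads (0.975), and was 1.15 with either GC correction. Alpha was 1.70 under TPM and under equal total reads, 1.73 and 1.71 with the GC corrections, 1.49 without the C-type members, 1.51 without Pcdhac2, and 1.12 and 1.45 as medians (1.65 over members with 20 or more reads). Gamma was 1.51 under TPM and equal total reads, 1.32 and 1.59 with the GC corrections, 1.55 without the C-type members, 1.54 without Pcdhgc5, and 1.34 as the median of FPKM differences. Depth limits members under 20 reads over the 3 libraries, of which there were 5.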
